A study of Mus musculus with 2 samples.

Results

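Thyroid hormone reaches the developing eye from the blood, and 4 genes that carry it, activate it, destroy it and read it were examined in single cells of mouse eye cups at e15.5. The members were transthyretin (Ttr), type 3 deiodinase (Dio3), type 2 deiodinase (Dio2) and thyroid hormone receptor alpha (Thra), each taken by its gene symbol, which makes 4 of the 31053 genes counted in each library. The control library came from Myrf fl/fl embryos, which carry the floxed Myrf alleles but no Cre. The mutant library came from Rx>cre Myrf fl/fl embryos, in which Cre is driven in the early eye field, so retina, retinal pigment epithelium (RPE) and optic stalk descend from Cre-expressing cells while the mesenchyme, vessels, muscle and blood in the same dissection do not. Each library was 1 pool of 3 eye cups, freed of cornea, lens and optic nerve and dissociated with papain, so there was 1 library per genotype and no test between genotypes was possible.

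Transthyretin is a secreted protein that carries thyroxine (T4) and, through retinol binding protein, vitamin A, and it is made in large amounts by the choroid plexus, the liver and the RPE. Inside cells, type 2 deiodinase removes an outer-ring iodine from T4 and so makes the active hormone T3, whereas type 3 deiodinase removes an inner-ring iodine and inactivates both. T3 acts through nuclear receptors encoded by Thra and Thrb, which bind DNA with or without hormone, and in the retina the receptor made from Thrb is known for its part in cone opsin patterning.

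Both deiodinases are selenoproteins, and the codon that places selenocysteine in the active site is the feature that joins them in sequence. The stretches are shown because Dio2 and Dio3 share this catalytic codon but, in the results that follow, had their highest levels in different classes. They are reference sequence of build GRCm38, written 5′ to 3′ in the sense of the gene, and the capitals mark the TGA selenocysteine codon. The annotation of Dio2 holds another such codon, 263, near the end of the protein, which is not shown.
Dio2, codon 130 of 266, minus strand, chr12:90729811-90729837: ggttcagccaccTGAccacctttcact
Dio3, codon 170 of 304, plus strand, chr12:110279727-110279753: ggcagctgtaccTGAccaccgttcatg
Of the 27 bases shown, 17 were identical. Dio3 is a gene of 1 exon at chr12:110279068-110281097, at the end of an imprinted domain. Dio2 lies at chr12:90724552-90738438, and Thra at chr11:98740638-98769006, where 263 exonic bases of 2 of its 9 annotated transcripts overlap the antisense gene Nr1d1 (chr11:98768157-98768419). Whether the counting used strand was not given in the sources used here, but Nr1d1 stood at 3.08 CPM (UMIs of a gene per 1000000 UMIs) in control and 4.18 CPM in mutant ganglion cells, where Thra was at 239 and 257 CPM.

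The control library held 13017 barcodes and 132436812 unique molecular identifiers (UMIs, 1 per captured transcript), and the mutant library held 13880 barcodes and 135678970 UMIs. After filtering, 11518 control and 12576 mutant cells were left. They formed 38 clusters, of which 29 could be named by markers into 16 classes, and the 14 classes with at least 50 cells in each library were compared. The names are "-like" because they rest on markers alone, and 9 clusters with 30.7% of control and 29.2% of mutant cells stayed unnamed. Myrf in RPE-like cells was at 77.3 CPM (293 UMIs) in control and 29.9 CPM (56 UMIs) in mutant. The libraries also differed in sex, since 41.7% of mutant but 0.026% of control cells held a UMI of a Y-linked gene, and they shared 69 barcodes. Levels are summed UMIs of a gene per 1000000 UMIs of a class (CPM). Brackets hold exact 95% intervals that cover counting error only, so they describe these 2 libraries and not the genotypes. Reads were from the 3′ end, and levels of different genes are not ranked against each other. A lower summed level can mean fewer expressing cells or less RNA per cell, and the share of cells with a UMI is given where it bears on this.

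**Figure D1:**
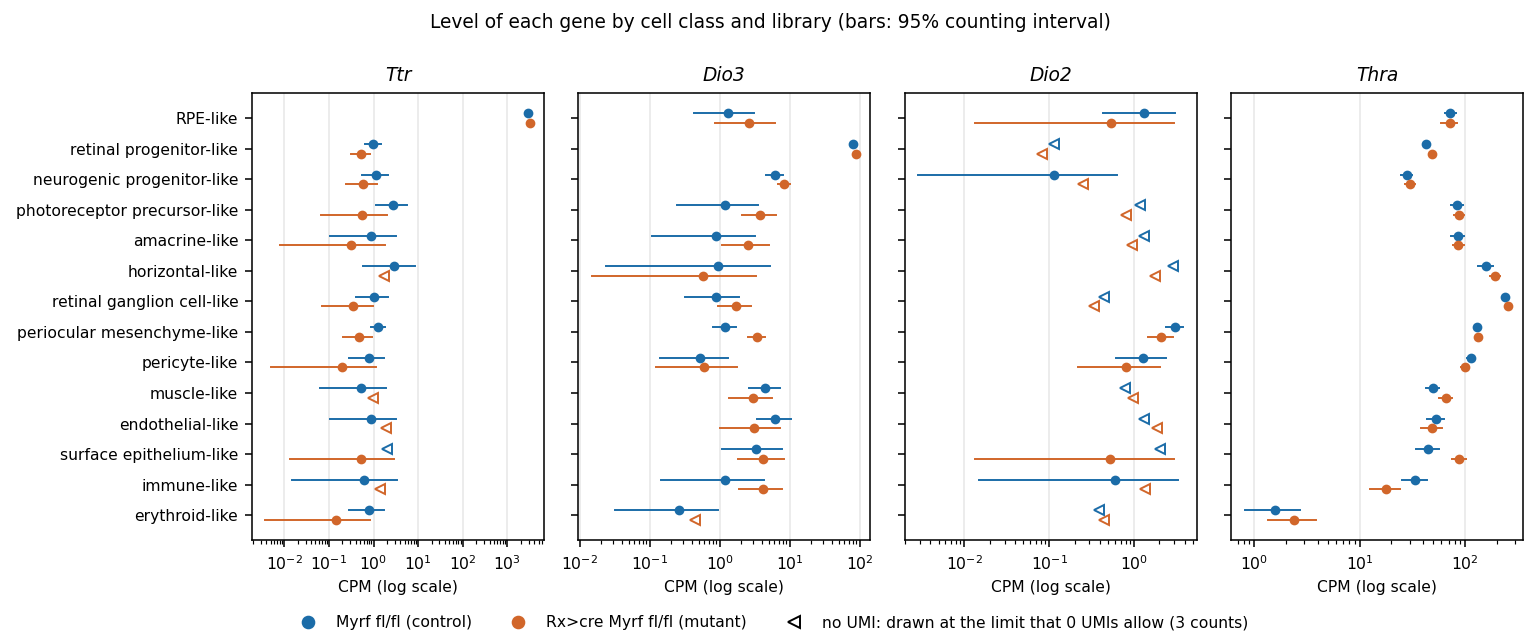
Level of Ttr, Dio3, Dio2 and Thra (CPM, log axis) in the 14 compared cell classes, 1 point per library with its exact 95% counting interval. Ttr was at 2943 and 3226 CPM in RPE-like cells and at most 2.87 CPM in any other compared class, Dio3 was highest in retinal progenitor-like cells, Dio2 was at most 3.05 CPM, in mesenchyme-like cells, and Thra was found in nearly every class, with the highest level in retinal ganglion cell-like cells.

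Ttr, the carrier, was a gene of the RPE in both libraries. RPE-like cells held 11149 Ttr UMIs in control (2943 CPM) and 6043 in mutant (3226 CPM), which was 98% of all Ttr UMIs in each library. Ttr was 1499-fold [1315–1717] higher in control RPE-like cells than in all other kept cells together, and 3203-fold [2679–3861] higher in mutant. Among the other compared classes the highest control level was 2.87 CPM, from 3 UMIs in horizontal-like cells, and the highest mutant level was 0.59 CPM, from 7 UMIs in neurogenic progenitor-like cells. Erythroid-like cells, which should not make Ttr, stood at 0.784 CPM (6 UMIs) and 0.148 CPM (1 UMI), so the low levels in retina, mesenchyme and vessels were of the order found in blood cells and were not read as expression. The class itself comprised 372 control and 205 mutant cells. In those with at least 5000 UMIs, Pmel, a pigment granule gene, was present in every cell, and Pax3, which marks melanocytes, gave 0 UMIs in control and 1 in mutant over the class. Rpe65, an enzyme of the visual cycle that marks mature RPE, was at 0.

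Melanocyte-like cells, the other pigmented class, held little Ttr. The 50 control cells gave 77 UMIs (113 CPM) and the 30 mutant cells 38 UMIs (89.2 CPM). Of these, 84.4% in control and 100% in mutant lay in 5 cells of each library, and without those cells the levels were 20.1 and 0 CPM. Against every 100 UMIs of the pigment genes Pmel, Dct and Tyrp1, RPE-like cells held 27.7 Ttr UMIs in control and 30.8 in mutant, whereas melanocyte-like cells held 0.609 and 0.41. Summed, the pigment genes were at 10635 and 10480 CPM in RPE-like and at 18609 and 21771 CPM in melanocyte-like cells, so the class with the higher pigment gene level had less Ttr.

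Within the RPE-like class Ttr varied widely from cell to cell. A Ttr UMI was present in 126 of 372 control cells (33.9% [29.1–38.9]) and 53 of 205 mutant cells (25.9% [20.01–32.4]), against 1.02% and 0.235% of erythroid-like cells. After each cell was thinned to 2000 UMIs the shares were 30.9% of 246 cells and 22.95% of 122 cells, with 126 and 83 shallower cells left out. Median depth in the class was 6739.5 UMIs in control and 3552 in mutant, against 16716.5 and 16546 in erythroid-like cells. Cells without Ttr were also found at high depth. Among RPE-like cells with at least 5000 UMIs, 128 of 205 control cells (62.4%) and 56 of 91 mutant cells (61.5%) had no Ttr UMI at a median of 18100 and 16665 UMIs. Another 56 control cells (27.3%) and 22 mutant cells (24.2%) had 10 or more, with medians of 71.5 and 73.5 Ttr UMIs, and these cells held 99.4% and 99.2% of the Ttr UMIs of the deep cells. A further 21 control and 13 mutant cells lay between, with 1 to 9. The limits of 5000 and 10 UMIs were chosen after the values were seen.

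**Figure D2:**
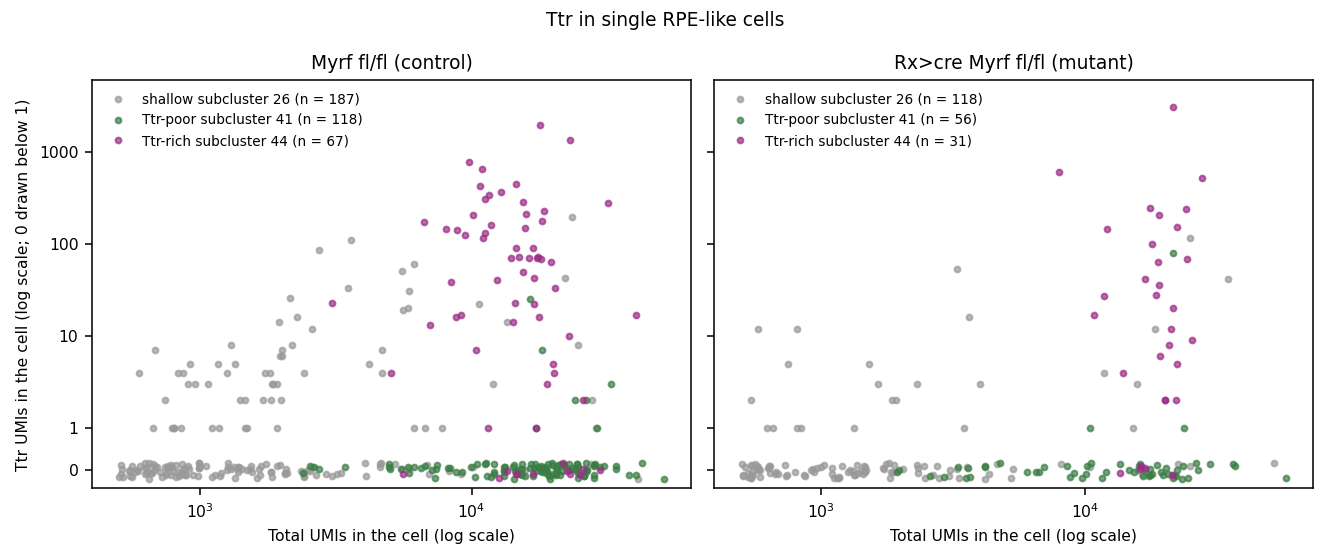
Ttr UMIs in each RPE-like cell against the total UMIs of the cell, control and mutant side by side (both axes log, cells without a Ttr UMI drawn at the bottom), coloured by the subcluster of the finer clustering that is described further on. Most cells of subcluster 41 lie at 0 and most of subcluster 44 lie above it at like depth, and the highest single cells reach 1945 UMIs in control and 3089 in mutant.

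A handful of cells carried the summed level of each library. In control, the 5 richest cells held 46.2% of the Ttr UMIs of the class, and in mutant they held 77.9%. The richest control cell had 1945 Ttr UMIs among 17960, or 10.8% of its transcripts, and the richest mutant cell had 3089 among 21487, or 14.4%. That mutant cell alone held 51.1% of the mutant class total. UMIs within a cell are not independent, and the counting intervals on Ttr are for this reason too narrow.

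The genotype ratio of Ttr depended on those cells. As summed, mutant over control was 1.10 [1.06–1.13] in RPE-like cells. Without the richest cell of each library the levels were 2441 CPM in control and 1595 CPM in mutant, a ratio of 0.653 [0.627–0.681]. Without the 5 richest of each it was 0.467, and the mean of the per-cell levels gave 0.748. In cells with an Xist UMI and no Y-linked UMI, which leaves out the richest mutant cell, the ratio was 0.196, and 25.4% of mutant RPE-like cells held a Y-linked UMI. All values computed without the richest mutant cell were below 1. With that cell kept, the ratio was also below 1 as a mean of per-cell levels and at a finer clustering (0.878). The study names Ttr among genes lower in mutant RPE, from genes that differed at all of its timepoints. Its e15.5 data were these same libraries, so for this age that listing is not independent evidence of a direction. The other timepoints were not examined here. RPE-like cells made up 3.23% of kept control and 1.63% of kept mutant cells.

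When the same cells were clustered more finely, without Ttr or any listed gene among the clustering features, the class split into 3 groups that differed in Ttr. Subcluster 44, with 67 control and 31 mutant cells, was Ttr-rich at 9728 and 9735 CPM, and 82.1% and 83.9% of its cells held a Ttr UMI. The richest cell of each library lay in it, and without those cells the levels were 8010 and 4593 CPM. Subcluster 41, with 118 and 56 cells, was Ttr-poor at 19.3 CPM (41 UMIs) and 94.1 CPM (81 UMIs). A single cell held 25 of these UMIs in control and 79 in mutant, and without it the levels were 7.57 and 2.38 CPM. Their cells were similar in depth, with medians of 14938 and 18135 UMIs in control and 19130 and 15695.5 in mutant. The remaining 187 and 118 cells, subcluster 26, had medians of 1380 and 1332.5 UMIs and stood between the others at 1490 and 698 CPM. At this resolution subcluster 41 did not pass the naming rule, since melanosome genes such as Mlana and Gpnmb were among its leading genes, and it is called by its number.

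RPE and pigment granule genes did not all differ one way between the Ttr-rich and Ttr-poor cells, and those given were chosen after their values were seen. Rdh5, a retinol dehydrogenase of the visual cycle, was 7.15-fold higher in subcluster 44 than in 41 in control and 3.63-fold higher in mutant. Rlbp1, which binds retinaldehyde, was 3.30-fold and 1.93-fold higher, and the transcription factor gene Otx2 was 2.69-fold and 2.65-fold higher. Otx1, a related gene, was lower in subcluster 44, at 0.478 and 0.426 of the level in 41, and Serpinf1, a secreted factor of the RPE, stood at 0.733 [0.449–1.16] and 0.932 [0.477–1.77]. Mlana was lower in subcluster 44, at 0.532 and 0.444 of the level in 41, as was Gpnmb, at 0.429 and 0.343. Pmel differed less, at 1.28 and 1.34, as did Tyrp1, at 1.11 and 1.19, and Dct stood at 0.899 and 0.678. Myrf itself was 3.24-fold higher in control, at 154 against 47.4 CPM, and 2.18-fold higher in mutant, at 53.3 against 24.4 CPM. These ratios describe groups that clustering drew from the same cells, and no test was made of them.

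Thyroid hormone genes were counted between these subclusters too. Of the listed pathway genes with at least 20 UMIs, 5 of 19 in control were at least 1.5-fold higher in subcluster 44, beside 16.0% of all genes, and 7 of 19 were lower, beside 14.9%. In mutant 2 of 15 were higher, beside 15.8%, and 4 of 15 were lower, beside 18.2%, so the mutant counts were near the share of all genes. The genes lower in subcluster 44 in both libraries were Slc7a8 and Slc3a2, the light and heavy chains of an amino acid exchanger that also moves thyroid hormones, and the receptor gene Thrb. Slc7a8 was at 0.411 and 0.404 of the level in subcluster 41, and Slc3a2 at 0.573 and 0.587. Thrb had 6 UMIs in subcluster 44 and 100 in 41 in control, a ratio of 0.122 [0.0437–0.275], and 1 and 29 UMIs in mutant, 0.051. Thra did not follow this split, at 0.803 and 0.879 with intervals that included 1.

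**Figure D3:**
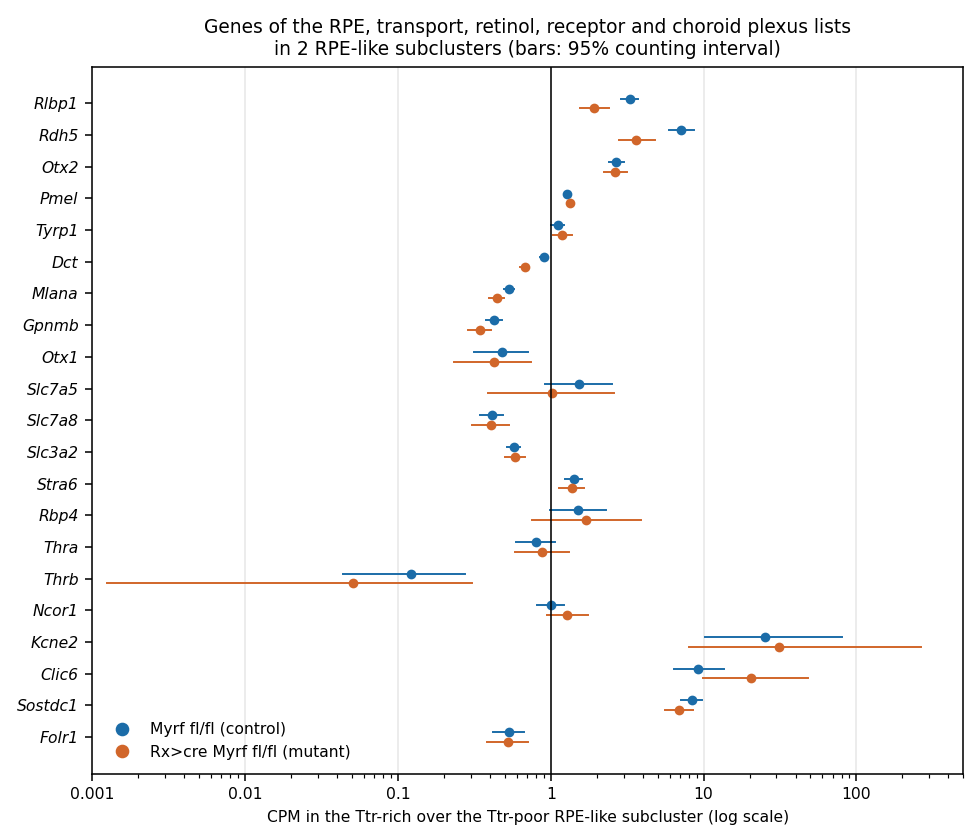
Ratio of each gene's level in the Ttr-rich subcluster 44 to its level in the Ttr-poor subcluster 41 of the RPE-like class, by library, with 95% counting intervals (log axis). Rdh5, Rlbp1 and Otx2 lie above 1 in both libraries, Slc7a8, Slc3a2, Mlana, Gpnmb and Thrb lie below 1, and the mutant Thrb point rests on 1 UMI in subcluster 44.

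Genes that mark choroid plexus, a Ttr-rich epithelium of the brain, were counted beside Ttr. In RPE-like cells 6 of the 7 had more than 3 UMIs, their summed level was 537 CPM in control and 642 CPM in mutant, and Kl was at 0 in both. In the other compared classes the summed level ran from 0.261 CPM in control erythroid-like to 217 CPM in mutant mesenchyme-like cells. Of the latter, Aqp1 made up 203 CPM. Without Aqp1 and Sostdc1 the sum was 220 and 251 CPM in RPE-like cells and 1.12 and 1.13 CPM in mesenchyme-like cells. The highest such sum in the other compared classes was 35.6 CPM, in control surface epithelium-like cells. Of the list, Kcne2 was 25.2-fold and 31.1-fold higher in subcluster 44 than in 41, Clic6 9.25-fold and 20.4-fold, and Sostdc1 8.35-fold and 6.86-fold, whereas Folr1 was at 0.532 and 0.523. Several of these genes are also made by RPE, and the part of choroid plexus cells in the Ttr level was not tested.

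Among the transport genes, Slc3a2 was at 696 and 532 CPM in RPE-like cells, and Slc7a8 at 259 and 190 CPM. Slc16a10, a transporter of aromatic amino acids and T3, was the 1 pathway gene at least 1.5-fold higher in mutant RPE-like cells, at 2.38 CPM (9 UMIs) and 6.94 CPM (13 UMIs), a ratio of 2.92 [1.16–7.74]. Of the retinol genes, Stra6, the receptor for retinol binding protein, was at 295 and 300 CPM. Rbp4, the plasma partner of transthyretin, was lower in mutant RPE-like cells, at 30.9 CPM (117 UMIs) and 18.7 CPM (35 UMIs), 0.605 [0.402–0.889]. The serum carriers were nearly not found, with 1 UMI of Serpina7 and 9 of Alb over both libraries. Crym, an intracellular T3-binding protein, was highest in pericyte-like cells at 383 and 409 CPM.

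Over the listed pathway genes, the retinol genes not counted among them, RPE-like cells of the 2 genotypes differed about as often as any genes did. With at least 20 UMIs and a 1.5-fold limit, 1 of 22 tested pathway genes was higher in mutant and 2 were lower (Thrb and Mbp), beside 13.9% of all 10979 genes tested (4.93% higher and 8.93% lower). Of the members, Ttr and Thra were tested and neither passed, and Dio3 and Dio2 had too few UMIs there. Thrb was at 30.6 CPM (116 UMIs) in control and 18.7 CPM (35 UMIs) in mutant, 0.610 [0.406–0.897]. Mbp rested on 44 and 14 UMIs, 0.643 [0.326–1.20]. The median log2 ratio of the tested pathway genes was -0.20, beside -0.07 for all genes. In progenitor-like cells 0 of 24 pathway genes passed the limit, beside 5.62% of all genes, and no tool for calling differences was run on 1 library per group.

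Dio3, the inactivating deiodinase, was a gene of retinal progenitors. Retinal progenitor-like cells held 2087 Dio3 UMIs in control (79.6 CPM) and 3219 in mutant (88.6 CPM), or 87.4% and 86.8% of each library's total. In contrast to Ttr the UMIs were spread over many cells. A Dio3 UMI was found in 1143 of 2360 control cells (48.4%) and 1722 of 3479 mutant cells (49.5%), no cell had more than 10 or 13, and the 5 richest cells held 2.01% and 1.74%. Erythroid-like cells, as a background, gave 2 of 488 cells (0.410%) in control and 0 of 426 in mutant, which allows a share of up to 0.704%. Median depth was 10232 and 9538 UMIs in progenitors and 16716.5 and 16546 in erythroid-like cells. Thinned to 2000 UMIs the progenitor shares were 14.3% and 15.2%. The mutant over control ratio was 1.11 [1.05–1.18].

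Along the neuronal lineage Dio3 was lower past the progenitor. Neurogenic progenitor-like cells stood at 6.11 CPM in control and 8.35 CPM in mutant, 13.04-fold [9.96–17.4] and 10.6-fold [8.68–13.1] below retinal progenitor-like cells. Retinal ganglion cell-like cells stood at 0.879 and 1.69 CPM, 90.7-fold [41.6–247] and 52.3-fold [31.7–93.6] below. RPE-like cells, which share an origin with the retina, gave 5 UMIs in each library (1.32 and 2.67 CPM). Endothelial-like cells had 6.20 and 3.13 CPM.

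Among the 4 progenitor clusters the differences in Dio3 were small. Cluster 0, led by Ung and Pipox, was highest at 89.5 and 96.4 CPM, and cluster 2, led by histone genes, was lowest at 64.9 and 77.9 CPM. Cluster 0 was 1.38-fold [1.23–1.55] higher than cluster 2 in control and 1.24-fold [1.13–1.36] in mutant. Clusters 6 and 10 lay between, at 81.4 and 91.7 CPM and at 84.5 and 87.0 CPM. In the neurogenic clusters the step was larger than this spread. Cluster 28 had 11.7 and 16.1 CPM, cluster 11 had 8.84 and 8.36 CPM, cluster 19 had 3.20 and 5.45 CPM, and cluster 20 had 0.571 and 4.56 CPM.

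Outside the retina, Dio3 in periocular mesenchyme-like cells was past 1.5-fold between the libraries with an interval that left out 1. It was at 1.20 CPM (28 UMIs) in control and 3.40 CPM (57 UMIs) in mutant, 2.82-fold [1.77–4.61], in a class where 5.38% of all genes were at least 1.5-fold higher in mutant. In cluster 7 the UMIs were 16 in control and 39 in mutant, at 2.12 and 9.26 CPM, and in cluster 34 they were 0 and 11, the latter in 4 cells. In clusters 4 and 14 they were 5 and 4 and 7 and 3, with ratios of 0.908 and 0.652 and intervals that included 1. The other compared classes past 1.5-fold in Dio3 had few UMIs and intervals that included 1. Photoreceptor precursor-like (3.20), immune-like (3.43), amacrine-like (2.86), RPE-like (2.02) and ganglion cell-like cells (1.93) were higher in mutant. Endothelial-like (0.504) and muscle-like cells (0.660) were lower. Mesenchyme does not descend from Rx-expressing cells as a rule, and sex, embryo pool and genotype cannot be told apart here.

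The imprinted neighbours of Dio3 did not share its pattern. Meg3 was highest in mesenchyme-like cells, at 1946 and 2188 CPM, and stood at 35.3 and 27.2 CPM in progenitor-like cells. Dlk1, the gene at the other end of the domain, was highest in muscle-like cells at 856 and 1008 CPM and stood at 4.43 and 3.85 CPM in progenitor-like cells. Rtl1, with 175 UMIs in all, and Mirg, with 2291, were also highest in mesenchyme-like cells. Rian and Dio3os were not matched by symbol and are not reported. Dio1, the liver and kidney deiodinase, gave 3 UMIs in both libraries together. Sephs2 and Secisbp2, which serve selenocysteine insertion, were present in progenitor-like cells at 34.8 and 33.6 CPM and at 23.5 and 21.4 CPM, and Sepsecs, of the same route, at 6.64 and 5.97 CPM.

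Dio2, the activating deiodinase, was rare and found outside the retina. All kept cells gave 99 UMIs in control and 50 in mutant. Periocular mesenchyme-like cells held 71 (3.05 CPM) and 35 (2.09 CPM) of these, or 71.7% and 70.0%. The UMIs lay in 52 of 1693 control cells (3.07%) and 28 of 1124 mutant cells (2.49%), and thinned to 2000 UMIs the shares were 0.475% and 0.719%. The genotype ratio was 0.683 [0.442–1.04], with an interval that included 1. It was 0.516 [0.246–0.98] in cells with Xist and without a Y-linked UMI and 0.570 [0.335–0.941] without the 5 richest cells of each library, but 1.09 as a mean of per-cell levels.

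Within the mesenchyme-like class a single cluster held nearly all of the Dio2 UMIs. Cluster 7, led by Mfap5, Tnxb, Osr2 and Foxl2, held 66 UMIs in 614 control cells (8.73 CPM) and 31 in 356 mutant cells (7.36 CPM). Cluster 4, the largest mesenchyme cluster with 660 and 503 cells, gave 2 and 1 UMIs, cluster 14 gave 3 in each library, and cluster 34 gave 0. Cluster 7 was 39.6-fold [10.5–333] above cluster 4 in control and 58.8-fold [9.81–2398] in mutant. RPE-like and pericyte-like cells were next among the classes. In control the mesenchyme-like class was 2.31-fold [0.946–7.34] above RPE-like cells, and in mutant 2.61-fold [0.933–10.1] above pericyte-like cells. Both intervals included 1, and as a mean of per-cell levels control RPE-like cells were higher than mesenchyme-like cells. The pericyte-like cells gave 10 UMIs (1.29 CPM) and 4 UMIs (0.80 CPM), 6.76-fold [3.45–14.7] and 9.20-fold [3.25–35.9] below cluster 7. Within cluster 7 the genotype ratio was 0.844 [0.532–1.31].

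In the retinal classes Dio2 gave 1 UMI, in control neurogenic progenitor-like cells. There was no UMI in 2360 control and 3479 mutant retinal progenitor-like cells, which allows a level of up to 0.114 and 0.0825 CPM (3 counts per class and library) and a share of cells with a UMI of up to 0.127% and 0.0862%. Photoreceptor precursor-like, amacrine-like, horizontal-like and retinal ganglion cell-like cells were also at 0 in both libraries, as were muscle-like, endothelial-like and erythroid-like cells. RPE-like cells gave 5 UMIs in control (1.32 CPM) and 1 in mutant (0.534 CPM). Dio2 and Dio3 thus had their highest levels in different classes. Mesenchyme cluster 7 held UMIs of both, and 1 control and 3 mutant cells of all those kept held both, out of 74 and 41 cells with Dio2. At counts this low, joint detection in single cells does not show whether the genes are kept apart.

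**Figure D4:**
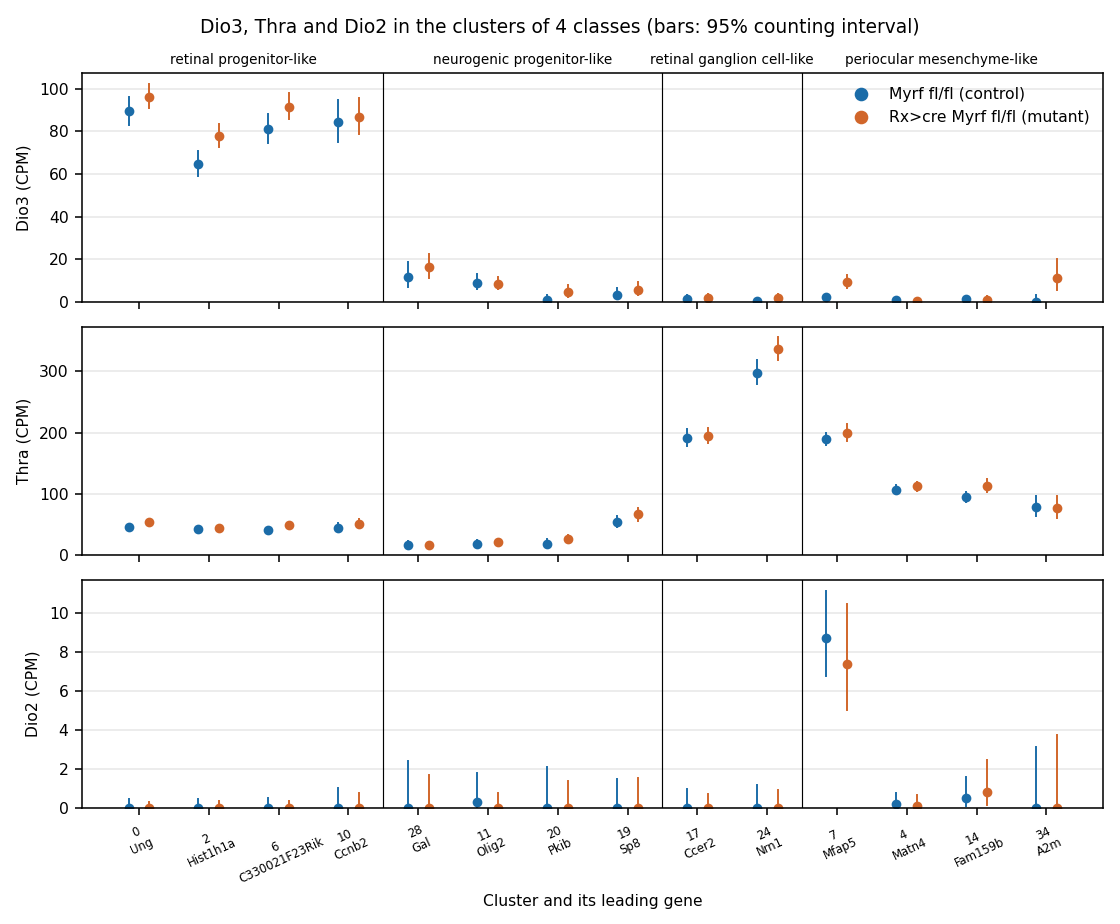
Levels of Dio3, Dio2 and Thra (CPM) in single clusters of the progenitor, neurogenic, ganglion cell and mesenchyme classes, 1 point per library with 95% counting intervals, each cluster labelled with its leading gene. Dio3 is at 64.9 to 96.4 CPM in the progenitor clusters and at most 16.1 CPM in the neurogenic ones, Dio2 is at 8.73 and 7.36 CPM in cluster 7, and Thra is highest in ganglion cell cluster 24.

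Thra, the receptor, was found in nearly every class and was highest in retinal ganglion cell-like cells. These held 1630 UMIs in control (239 CPM) and 2279 in mutant (257 CPM). A Thra UMI was present in 88.9% of 416 control cells and 94.6% of 522 mutant cells, against 2.25% and 3.05% of erythroid-like cells at like depth (medians of 16628 and 16779 against 16716.5 and 16546 UMIs). Thinned to 2000 UMIs the ganglion cell shares were 36.5% and 37.0%, and those of erythroid-like cells 0.437% and 0.494%. The genotype ratio was 1.08 [1.01–1.15], and its interval included 1 with doublets kept (1.05 [0.986–1.11]) and in cells with Xist and without a Y-linked UMI (1.033 [0.939–1.14]). Counts from the 3′ end do not separate the receptor isoform TRα1 from the variant TRα2, which does not bind T3.

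Among the progenitor, neurogenic and ganglion cell clusters, Thra was highest in the ganglion cell clusters. No order of the clusters in time was computed. Retinal progenitor-like cells stood at 42.9 CPM in control and 49.1 CPM in mutant. Neurogenic clusters 28, 11 and 20 were lower, at 15.6 and 15.7, 18.3 and 20.6, and 18.3 and 25.8 CPM, and neurogenic cluster 19 was at 54.0 and 66.2 CPM. Ganglion cell cluster 17, led by Ccer2, Cntn2 and Isl1, was 3.54-fold and 2.94-fold above cluster 19, at 191 and 195 CPM. Ganglion cell cluster 24, led by Nrn1, Sncg and Mapt, was the highest at 298 and 337 CPM, 1.56-fold and 1.73-fold above cluster 17. Thra was thus lower in neurogenic clusters 28, 11 and 20 than in progenitors, as Dio3 was, and higher in ganglion cells, where Dio3 was at 0.879 and 1.69 CPM. Both were found in 433 control and 668 mutant progenitor-like cells.

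Among the other classes, horizontal-like cells followed at 158 and 192 CPM, 1.51-fold [1.29–1.79] and 1.34-fold [1.19–1.51] below ganglion cells. Mesenchyme-like cells had 129 and 132 CPM, and pericyte-like cells 113 and 101 CPM. Amacrine-like (86.1 and 86.6 CPM), photoreceptor precursor-like (84.7 and 88.7 CPM) and RPE-like cells (72.6 and 71.5 CPM) followed. In control these were neighbours in the order and neighbouring levels did not differ beyond counting error. In RPE-like cells the genotype ratio of Thra was 0.985 [0.795–1.22]. Endothelial-like cells (52.7 and 48.8 CPM), muscle-like cells (49.7 and 65.5 CPM) and progenitor-like cells were lower, with neurogenic progenitor-like cells below at 27.9 and 30.02 CPM. Within the mesenchyme, the Dio2-bearing cluster 7 was again highest, at 189 and 200 CPM, 1.77-fold and 1.78-fold above cluster 4. Of the mesenchyme-like cells with a Dio2 UMI, 49 of 52 in control and 21 of 28 in mutant also held one of Thra, beside 1298 of all 1693 control and 923 of all 1124 mutant mesenchyme-like cells.

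Between genotypes Thra was past 1.5-fold, with intervals that left out 1, in surface epithelium-like and immune-like cells. In the former it was at 44.3 CPM (66 UMIs) in control and 88.6 CPM (168 UMIs) in mutant, 2.00-fold [1.497–2.70], where 17.2% of all genes passed the limit. In the latter it was at 33.4 CPM (56 UMIs) and 17.7 CPM (39 UMIs), 0.531 [0.343–0.813], beside 16.3% of all genes, and 48.2% of the control UMIs lay in 5 cells. Its larger cluster, 32, gave 39 and 35 UMIs, 0.630 [0.388–1.02], and cluster 37, of 10 and 9 cells, gave 17 and 4 UMIs.

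**Figure D5:**
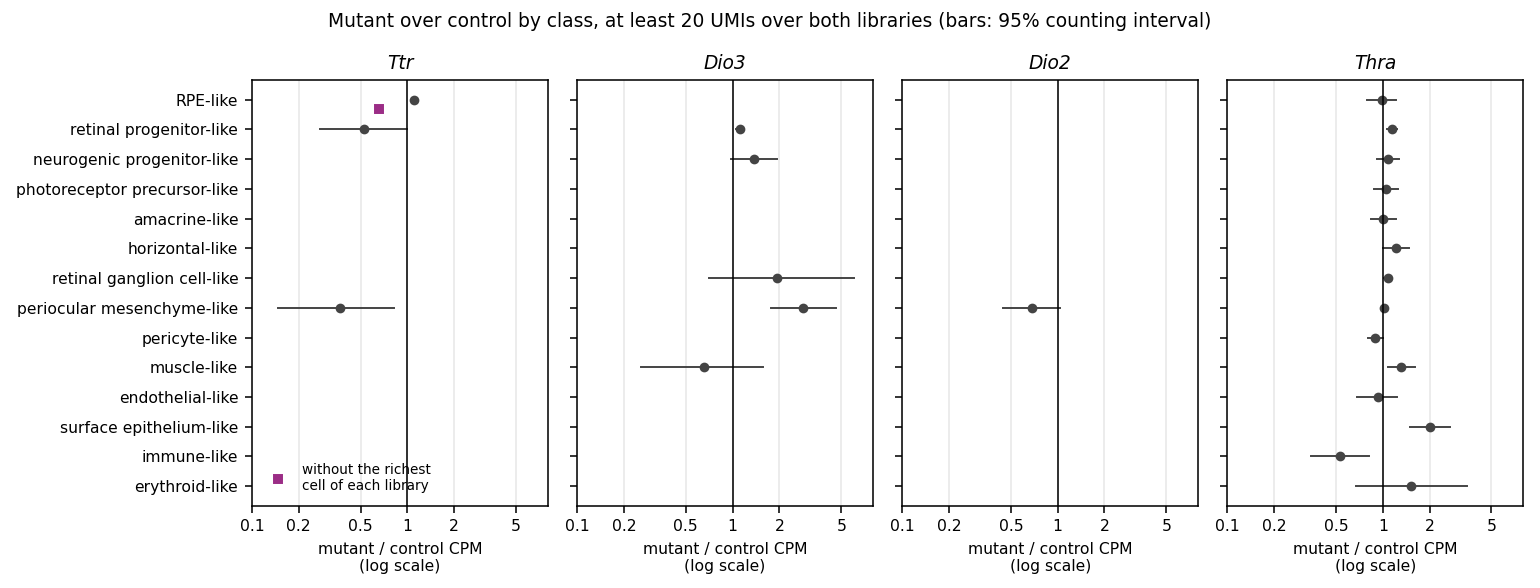
Mutant over control ratio of each member in each compared class with at least 20 UMIs over both libraries (log axis), with 95% counting intervals and a line at 1. Thra lies within 1.5-fold of 1 in most classes, with 2.00 in surface epithelium-like and 0.531 in immune-like cells, Dio3 reaches 2.82 in mesenchyme-like cells, and the square gives Ttr in RPE-like cells without the richest cell of each library, at 0.653.

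The partners of the receptor were not placed like Thra. Thrb was highest in photoreceptor precursor-like cells, at 749 CPM in control and 627 CPM in mutant, and Rxrg, a retinoid receptor gene known from cones, was highest there as well, at 120 and 110 CPM. Thra and Thrb were found together in 126 of 332 control and 189 of 484 mutant photoreceptor precursor-like cells. The corepressor gene Ncor1 was spread widely and stood at 270 and 252 CPM in progenitor-like cells. Med1 and Hdac3, a coactivator subunit and a histone deacetylase, were highest in horizontal-like cells (87.0 and 94.0 CPM) and surface epithelium-like cells (63.7 and 49.6 CPM). Of the retinoid receptors that pair with the receptor, Rxrb was highest in control in amacrine-like cells (38.2 CPM, with 29.8 CPM in mutant). In mutant it was highest in horizontal-like cells (32.9 CPM). Rxra was highest in surface epithelium-like cells (29.5 and 27.4 CPM). Among known target genes Klf9 was at most 37.6 CPM in any class, and Hr and Thrsp had 36 and 60 UMIs in all cells. Opn1mw, the cone opsin gene that T3 promotes, was at 0 in every cell, and Opn1sw was at 3.98 and 5.73 CPM in photoreceptor precursor-like cells. Mbp was highest in the same cells at 94.6 and 74.3 CPM, and Camk4 in amacrine-like cells at 42.6 and 38.4 CPM.

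Genes with the pattern most like each member across the 14 classes and both libraries were named by the Pearson correlation of log2(CPM + 1) over 28 points, among 12499 genes. The points share libraries and depth, and r is a description. For Ttr they were Tspan10 (r = 0.986), Slc16a8 (0.984), Oca2 (0.982), Klk4 (0.981) and Slc45a2 (0.979). For Dio3 they were Fgf3 (0.901), Cp (0.891), Gcnt4 (0.880), Fgf15 (0.878) and Pth2 (0.876). For Dio2 they were Cybrd1 (0.923), Prrx1 (0.893), Dcn (0.890), Adra1b (0.882) and Igfbp6 (0.879), and for Thra they were Map1lc3a (0.963), Stoml1 (0.956), Pja1 (0.953), Pfkm (0.951) and Eid1 (0.949).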

How the data were processed

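The deposited files were 10x matrices of unnormalized UMI counts, 1 per library. Per the submitters' processing notes the reads were counted with Cell Ranger 7.1.0 on mm10, whereas the deposited matrix headers give version 3.1.0. The labels gave the genotype groups, with 1 library each. No columns of per-sample values went unused (0).

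Cells with under 200 genes or over 15% mitochondrial UMIs were left out (879 control, 733 mutant for mitochondria), and Scrublet doublets were removed (424 and 442, or 3.55% and 3.40%). The expected rates, 9.55% and 10.4%, were higher, so doublets remained. A limit of 2000 UMIs in the study's methods would remove 79.1% and 80.6% of barcodes and was tried as an alternative only. Counts were scaled to 10000 per cell, log-transformed and clustered together on 1888 variable genes (scanpy 1.11.5, 30 components, 15 neighbours, Leiden resolution 1.0; 2.0 for subclusters), leaving out the members, the listed genes, markers, Xist and Y-linked genes. Clusters were named from marker scores, and clusters of low depth with no marker of their best class among the leading genes stayed unnamed. The lead over the next class needed for a name (0.3), a Pax2 exception and the groups by 5000 and 10 UMIs were set after the data were seen.

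Summed counts per class were divided by the class total (CPM). Intervals are exact at 95%: Poisson for levels, conditional binomial for ratios, Clopper-Pearson for shares (scipy 1.17.1). A gene was counted when its ratio reached 1.5-fold on a summed 20 UMIs or more, with no test. On RPE-like class sums simulated from the counting model that the intervals assume, they covered 95.9% of true ratios. That coverage follows from the model and does not bear on UMIs that lie together in single cells. The lists were transport, carrier, retinol, deiodinase, receptor, cofactor, target, imprinted neighbour and choroid plexus genes. Genes named were the members, the 3 of each list with most UMIs or those past 1.5-fold in RPE-like cells, Thrb, Dio1 and Dio3os, and the 5 genes most like each member. Rxrg, Rtl1, Hr, Thrsp, the opsins and the RPE, pigment and melanocyte genes named beside the subclusters were chosen after their values were seen. The members and lists were chosen with earlier results of these data known. Sequence of Ttr and the values of some listed genes are not reported here.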

Additional observations from a re-analysis of the deposited data

Results flagged for a closer look

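The effect of genotype on a member was marked where its counting interval left out 1 in a class while other classes pointed elsewhere. With 1 library per genotype the differences between classes were not tested. Ttr, as mutant over control, was 1.10 in RPE-like cells [1.06–1.13], 0.370 in mesenchyme-like cells [0.146–0.825] and 0.527 in retinal progenitor-like cells [0.276–0.990]. Without the richest cell of each library the RPE-like ratio was 0.653 [0.627–0.681], on the same side as the other 2. Those rest on 30 and 8 and on 26 and 19 UMIs, at levels near those of erythroid-like cells. Thra was 1.22 in horizontal-like [1.01–1.48], 1.32 in muscle-like [1.08–1.62], 1.08 in retinal ganglion cell-like [1.01–1.15] (1.05 [0.986–1.11] with doublets kept), 1.14 in retinal progenitor-like [1.06–1.23] and 2.00 in surface epithelium-like cells [1.497–2.70], and it was 0.531 in immune-like [0.343–0.813] and 0.894 in pericyte-like cells [0.7996–0.998].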

How the results depend on the processing

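No paired analysis was possible because each genotype had 1 library, and for the same reason no replicate could be left out. The summed Ttr ratio in RPE-like cells (1.10) turned to 0.378 with at most 5% mitochondrial UMIs, 0.398 without cells over 20000 UMIs, 0.631 without cells over 2000, 0.196 in cells that held Xist but no Y-linked UMI, 0.748 as a mean of per-cell levels, 0.878 at Leiden resolution 2.0, 0.467 without the 5 richest cells and 0.133 without cells that held markers of other types. Without cells over 2000 UMIs the Dio3 ratio turned to 0.605 [0.280–1.31], on 16 mutant and 15 control UMIs and with an interval that included 1. The Thra ratio in ganglion cells then moved to 3.60, on 4 and 1 UMIs. The Ttr fold of RPE-like over horizontal-like cells (1026), the next class as summed in control, became at least 242 at 5% mitochondrial UMIs. It was at least 2.45 without cells over 2000 UMIs. These are against 3 counts because horizontal-like cells were then at 0, and RPE-like cells were not compared with other classes there. The Dio3 fold over endothelial-like cells (12.8), the next class as summed, became at least 4.29 without cells over 2000 UMIs, likewise against 0 UMIs. It moved to 42.4 without the 5 richest cells of each class. The class compared was kept fixed in all alternatives, so these folds need not be over the class that was then next. As a mean of per-cell levels the Dio2 ratio was 1.09 and its fold over RPE-like cells, the next class as summed, was 0.734, from 0.683 and 2.31. Thinning moved the shares of cells to 14.3% and 15.2% (Dio3), 0.475% and 0.719% (Dio2) and 36.5% and 37.0% (Thra). The 3 pathway genes past 1.5-fold in RPE-like cells became 5 with no minimum count and 2 with at least 50 UMIs. Another 78 values of the main results under alternatives moved by less than counting error, though the interval of the ganglion cell Thra ratio then included 1 with doublets kept and in the cells without Y-linked UMIs. The mesenchyme Dio3 ratio ran from 2.04 to 4.35, the surface epithelium Thra ratio from 1.68 to 2.35 and the immune-like Thra ratio from 0.480 to 0.689, in alternatives chosen after the data were seen. A further 8 alternatives gave no value, since a class or its counts were gone. The causes were not tested.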

Other observations

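Some member levels lay in clusters that stayed unnamed. Clusters 1, 3 and 29 were shallow, with medians of 1420, 1165.5 and 1470 UMIs, and the depth rule for names left them out. The best-scoring class was retinal progenitor for cluster 3 (1.20, next 0.711) and immune for cluster 29 (3.68, next 0.409). For cluster 1 the scores of erythroid (1.49) and retinal progenitor (1.23) were close, and histone genes were among its leading genes. Cluster 13 stood at 214 CPM of Thra in control (268 cells) and 247 CPM in mutant (337 cells), between the ganglion cell clusters 17 and 24. Dio3 was found in the same cluster at 6.02 and 12.3 CPM. Of the unnamed clusters, cluster 1 held most Dio3, at 26.4 CPM (83 UMIs) in control and 32.4 CPM (111 UMIs) in mutant, and cluster 3 stood at 21.96 and 22.8 CPM. Cluster 33 stood at 8.18 and 25.4 CPM, and cluster 29 at 0 and 29.6 CPM (18 UMIs). No class was given to these cells, and the values are reported without explanation.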
